A study of Homo sapiens with 2 samples.

Results

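The insulin-like growth factor (IGF) genes described here are 10 of the 38606 rows of the count matrix, taken by name: the binding proteins IGFBP2, IGFBP3, IGFBP4, IGFBP5, IGFBP6 and IGFBP7, the ligands IGF1 and IGF2, the receptor IGF1R and the protease PAPPA. All 10 had a row, and 8 of them reached 5 counts per 1000000 UMIs (CPM) in at least 1 library. A UMI marks 1 captured RNA molecule. They were measured in human mesenchymal stem cells derived from adipose tissue and bought commercially. The sources used here do not say how many donors they came from. The cells were brought near to confluence and starved overnight. The treated cells then received transforming growth factor beta 1 (TGFB1) at 10 ng/mL for 24 hours, and the others were left untreated. Each condition is 1 single-cell library, so no difference below has a replicate check, no p-value is given, and every interval is a 95% interval that covers counting error only.

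IGF1 and IGF2 are secreted hormones that signal growth and survival through the receptor tyrosine kinase encoded by IGF1R. In the space between cells most IGF is held by IGF binding proteins, which prolong its life and keep it from the receptor. PAPPA is a secreted metalloproteinase that cuts IGFBP4 and IGFBP5 and so frees the bound ligand. IGFBP7 is a more distant relative that binds IGFs weakly. Fibroblasts and adipose stromal cells are known local sources of IGF1 and of several binding proteins.

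The TGFB1 library held 12555 cells with a median of 15134 UMIs, and the untreated library 8101 cells with a median of 19249. A total of 18 cell barcodes occurred in both. As a check of the treatment, 9 of 10 SMAD response genes passed 1.5-fold upwards with TGFB1, all but COL1A1, and none passed it downwards. Of all 10928 genes at 5 CPM or more, 8.45% passed it upwards and 14.2% downwards. This list, like the others, was chosen with earlier results of these data known. The 9 stromal markers summed to 20599 CPM in TGFB1 cells and 18466 CPM in untreated cells, and all were detected, although DCN, PDGFRA, LUM and NT5E were lower by 1.5-fold or more. Most of the sum came from COL1A1 (9412 CPM with TGFB1 and 6862 CPM without) and COL1A2 (9179 and 7622 CPM). ENG was at 7.85 and 6.67 CPM, with a UMI in 6.09% of TGFB1 cells and 5.21% of untreated cells. The 6 fat cell markers summed to 0.163 CPM with TGFB1 and 0.290 CPM without, the 6 endothelial markers to 0.301 and 0.355 CPM, and the 3 liver markers to 0.115 and 0.296 CPM. The 6 leukocyte markers summed to 17.1 CPM with TGFB1 and 25.3 CPM without, nearly all of it CD68 (16.3 and 24.1 CPM). The 7 mural cell markers summed to 69.4 and 113 CPM in the same order, led by ABCC9 (33.1 CPM with TGFB1 and 75.6 CPM without). MCAM, NOTCH3, CSPG4 and MYH11, each under 5 CPM, were higher with TGFB1, CSPG4 only by a ratio of 1.12. RGS5, also under 5 CPM, was lower (2.70 CPM with TGFB1 and 4.84 CPM without), as was KCNJ8 (19.3 and 23.8 CPM). The 5 epithelial markers summed to 274 CPM with TGFB1 and 712 CPM without, mostly KRT19 (191 CPM with TGFB1 and 675 CPM without). KRT18 went the other way, at 80.2 CPM with TGFB1 and 35.1 CPM without, while EPCAM and CDH1 stayed under 5 CPM. The part of these markers in the results was not tested.

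The 3 members with the largest differences are shown by the 250 bases before the annotated start, from RefSeq (GRCh38.p14), since they differ widely in base composition. The sequences are in lower case, and capitals mark GGGCGG on either strand.
IGFBP3, minus strand, chr7:45921273-45921522: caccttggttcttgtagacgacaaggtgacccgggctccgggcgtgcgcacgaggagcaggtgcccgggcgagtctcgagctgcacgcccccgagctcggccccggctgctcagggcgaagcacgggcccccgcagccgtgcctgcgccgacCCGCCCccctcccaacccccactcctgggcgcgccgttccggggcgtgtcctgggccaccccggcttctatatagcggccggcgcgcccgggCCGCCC
IGF1, minus strand, chr12:102481748-102481997: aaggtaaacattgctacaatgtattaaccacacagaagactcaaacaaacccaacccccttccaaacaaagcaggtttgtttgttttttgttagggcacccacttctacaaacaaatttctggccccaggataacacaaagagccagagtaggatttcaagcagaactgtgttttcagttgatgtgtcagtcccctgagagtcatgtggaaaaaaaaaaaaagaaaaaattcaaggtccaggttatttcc
IGFBP5, minus strand, chr2:216695550-216695799: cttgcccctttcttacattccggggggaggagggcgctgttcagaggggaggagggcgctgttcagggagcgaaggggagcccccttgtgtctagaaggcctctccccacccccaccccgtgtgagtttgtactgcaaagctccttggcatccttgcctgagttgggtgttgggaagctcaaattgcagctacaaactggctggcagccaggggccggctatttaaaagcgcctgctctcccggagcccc
The IGFBP3 stretch was 76% G and C, the IGF1 stretch 39.6% and the IGFBP5 stretch 61.2%. For IGF1 the table gives 2 starts, and the one farther upstream is shown. The IGFBP3 stretch lies inside the gene's span in GENCODE release 29, which starts farther upstream. GGGCGG, a box bound by SP1, began at -98 and -6 from the start of IGFBP3 and was not in the other two. CAGAC, a box bound by SMAD proteins, and TATAAA were searched on both strands and were in none of the 3. Only these exact bases were searched, so near forms of TATAAA may be present. Among all 35116 promoter stretches of this length, 42.6% held GGGCGG, 38.0% CAGAC and 10.7% TATAAA. Of the 10 genes, 8 had an entry, and TATAAA was found before IGFBP4 at -29 and before PAPPA at -28.

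IGFBP3 and IGF1 were higher with TGFB1, and IGFBP5, IGFBP4 and IGFBP6 were lower. Of the 8 genes at 5 CPM or more, 2 thus passed 1.5-fold upwards and 3 downwards, whereas IGFBP7, IGF1R and PAPPA lay within 1.5-fold. By the same rule 8.45% of the 10928 genes at 5 CPM or more were higher and 14.2% lower. The median log2 ratio of the 8 genes was -0.08, beside -0.10 over all genes tested. Scaling by TMM factors moved the median of all genes by 0.15, giving 1280 genes higher and 1092 lower in place of 923 and 1551, and scaling by median-of-ratios factors moved it by 0.19, giving 1396 higher and 1010 lower. Both left the calls of the 8 genes as they were, so log2 ratios below are on the CPM scale and shift upwards by these amounts under those scalings.

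**Figure D1:**
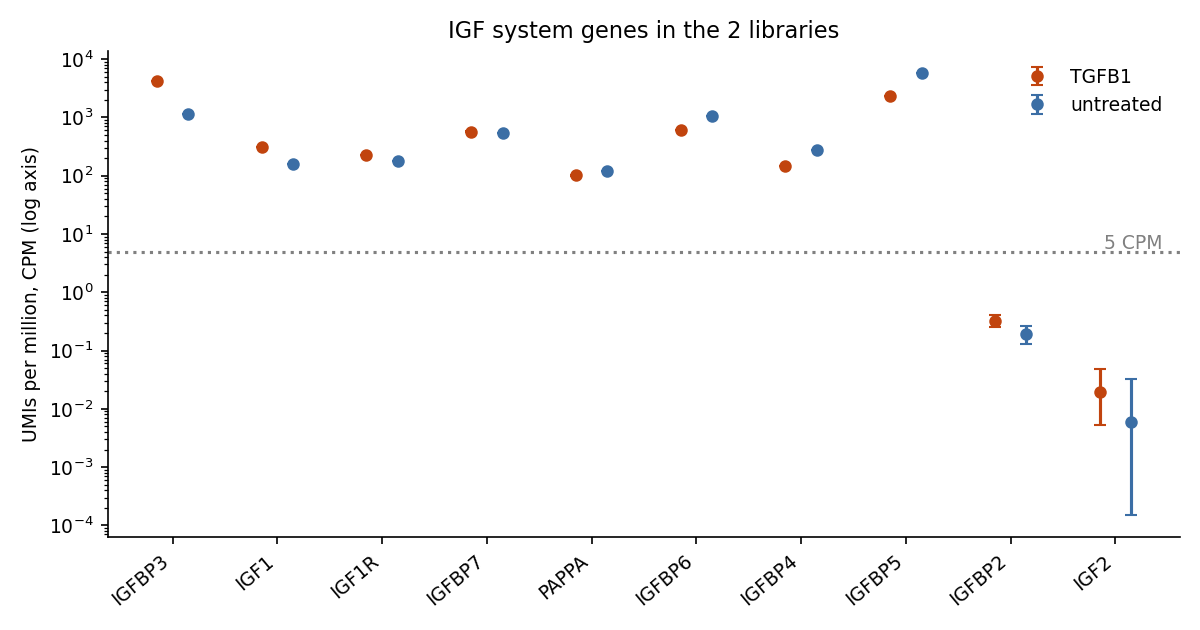
Level of each of the 10 genes in the TGFB1 (orange) and untreated (blue) libraries, in CPM on a log axis, with exact Poisson 95% intervals (hidden by most points). IGFBP3 (4184 and 1132 CPM) and IGF1 (313 and 158 CPM) were higher with TGFB1, and IGFBP5 (2369 and 5818 CPM) was lower; IGFBP2 and IGF2 lay under 5 CPM.

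IGFBP3, the main carrier of IGF in blood, had 874391 UMIs (4184 CPM) in the TGFB1 library and 191340 UMIs (1132 CPM) in the untreated library. It was 3.70-fold higher with TGFB1 (3.68 to 3.71). Its log2 ratio of 1.89 was the 92nd highest of the genes tested, and by UMIs it was the 24th most abundant row in TGFB1 cells and the 122nd in untreated cells. In GENCODE release 29 (GRCh38), the source of all gene positions here, it spans chr7:45912245-45921874 (minus strand). Its neighbour IGFBP1, 18.6 kb away, had 4 UMIs in each library.

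IGFBP5, a binding protein that attaches to matrix, differed the other way. It had 495101 UMIs (2369 CPM) with TGFB1 and 983273 UMIs (5818 CPM) without, and was 2.46-fold lower with TGFB1 (2.45 to 2.46). It was the 51st most abundant row in TGFB1 cells and the 12th in untreated cells. IGFBP4, the preferred substrate of PAPPA, was at 146 CPM with TGFB1 and 278 CPM without, 1.90-fold lower (1.88 to 1.93). IGFBP6, which prefers IGF2 over IGF1, was at 602 CPM with TGFB1 and 1045 CPM without, 1.74-fold lower (1.72 to 1.75). IGFBP5 spans chr2:216672105-216695525 (minus strand), IGFBP4 chr17:40443461-40457731 (plus strand) and IGFBP6 chr12:53097436-53102345 (plus strand).

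IGFBP7 was at 572 CPM with TGFB1 and 538 CPM without, a ratio of 1.06 (1.06 to 1.07). It spans chr4:57030773-57110385 (minus strand), and its antisense gene IGFBP7-AS1 had 27 UMIs with TGFB1 and 19 without. IGFBP2, whose end lies 7.67 kb from that of IGFBP5, was nearly silent. It had 68 UMIs (0.325 CPM) in the TGFB1 library and 32 UMIs (0.189 CPM) in the untreated one, a ratio of 1.72 (1.11 to 2.70). Of the 68 UMIs, 33 came from 1 cell. Without that cell 35 UMIs were left, and the ratio was 0.885 (0.532 to 1.48), a comparison added after the values were seen.

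Among the ligands, IGF1 had 65419 UMIs (313 CPM) with TGFB1 and 26748 UMIs (158 CPM) without, and was 1.98-fold higher with TGFB1 (1.95 to 2.01). IGF2 was all but undetected, with 4 UMIs in TGFB1 cells and 1 UMI in untreated cells. Its ratio of 3.23 had an interval from 0.320 to 159, and a count of 0 would have allowed 3 UMIs, or 0.0144 CPM with TGFB1 and 0.0178 CPM without. IGF2, at chr11:2129112-2149603 (minus strand), overlaps INS-IGF2 and MIR483 on its own strand. How the counting treated reads shared by overlapping genes is not stated in the labels, so its level is uncertain. The receptor IGF1R was at 228 CPM with TGFB1 and 180 CPM without, a ratio of 1.27 (1.25 to 1.29). PAPPA was at 102 CPM with TGFB1 and 121 CPM without, a ratio of 0.841 (0.825 to 0.858). IGF1 spans chr12:102395874-102481744 (minus strand), IGF1R chr15:98648539-98964530 (plus strand) and PAPPA chr9:116153804-116402322 (plus strand). PAPPA-AS1, antisense to PAPPA, had 163 UMIs with TGFB1 and 106 without.

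The make-up of the binding protein transcripts differed more than their sum. IGFBP2 to IGFBP7 together came to 7873 CPM with TGFB1 and 8810 CPM without. A UMI marks a captured molecule and capture may differ between genes, so shares of this sum are compared between libraries and not between genes. IGFBP3 supplied 53.1% of these UMIs in the TGFB1 library and 12.9% in the untreated library. IGFBP5 supplied 30.1% with TGFB1 and 66.0% without. IGFBP6 supplied 7.64% with TGFB1 and 11.9% without, IGFBP7 7.27% and 6.10%, and IGFBP4 1.85% and 3.15%.

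**Figure D2:**
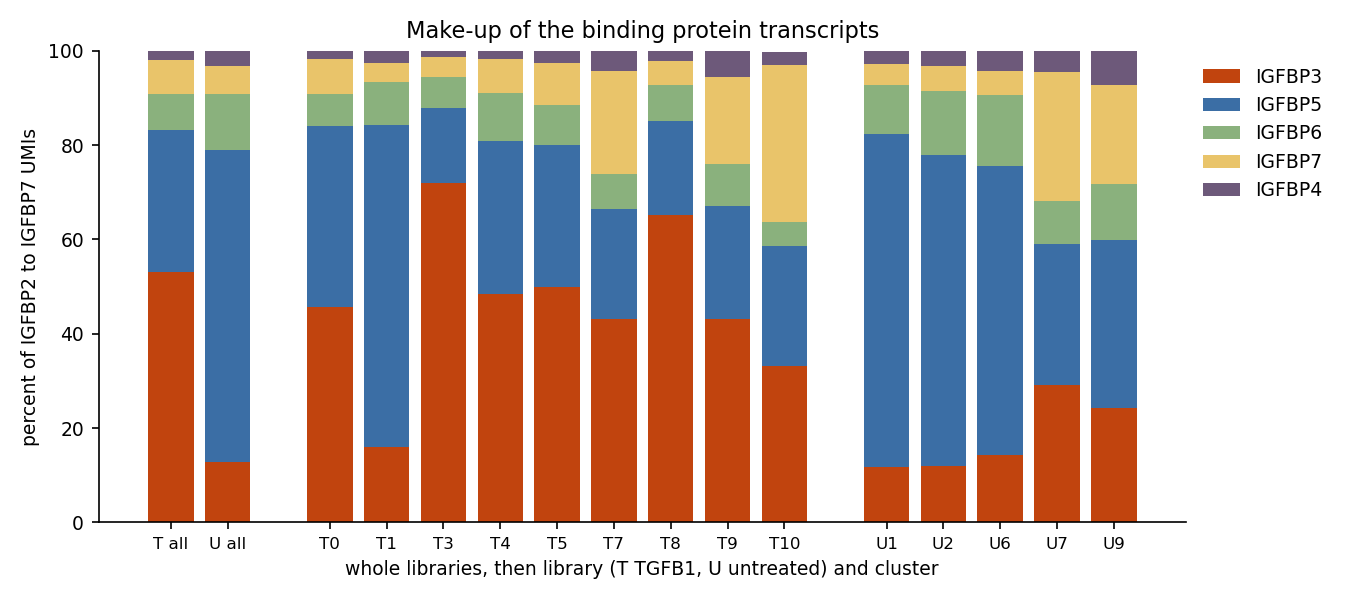
Share of the UMIs of IGFBP2 to IGFBP7 taken by each binding protein, in percent, in the whole TGFB1 (T) and untreated (U) libraries and in each library and cluster of at least 50 cells. IGFBP3 takes 53.1% in TGFB1 cells and 12.9% in untreated cells; treated cells of cluster 1 (T1) show 16.0%. IGFBP2 is not drawn.

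Counts per cell differed in the same way. More IGFBP3 than IGFBP5 UMIs were found in 71.5% (70.8 to 72.3) of TGFB1 cells and 13.6% (12.8 to 14.3) of untreated cells. After each cell was thinned to 7500 UMIs, which kept 9330 TGFB1 and 7646 untreated cells and left out 3225 and 455, the shares were 69.5% (68.6 to 70.4) and 13.3% (12.6 to 14.1). A thinned TGFB1 cell held a median of 25 IGFBP3 UMIs (6 to 58 from the 10th to the 90th percentile), and a thinned untreated cell 5 (1 to 18). For IGFBP5 the median was 12 (1 to 40) in TGFB1 cells and 30 (3 to 93) in untreated cells. The ranges of the 2 libraries overlapped for both genes.

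IGF1 was detected in part of the cells. After thinning, at least 1 IGF1 UMI was seen in 66.6% (65.6 to 67.5) of TGFB1 cells and 45.3% (44.2 to 46.4) of untreated cells, and before thinning in 77.0% and 60.7%. The 10% of cells with most IGF1 held 39.5% of its UMIs with TGFB1 and 50.6% without. IGFBP3 was seen in 99.2% of thinned TGFB1 cells and 91.7% of untreated cells (99.5% and 95.6% before), and IGFBP5 in 91.1% and 96.1% (95.2% and 97.7% before). IGFBP4 was seen in 60.1% of thinned TGFB1 cells, against 83.5% of untreated cells (74.96% and 95.04% before). The shares for IGFBP6 were 95.7% with TGFB1 and 98.9% without (94.8% and 98.6% before), and for IGFBP7 82.7% and 75.8% (89.5% and 85.7% before). IGF1R was seen in 71.3% of thinned TGFB1 cells and 61.7% of untreated cells (79.5% and 80.7% before), and PAPPA in 42.0% and 41.9% (58.3% and 62.0% before). No cell type known to lack these genes was present, so the share that free RNA gives could not be measured. The nearly silent IGFBP2 had a UMI in 0.129% of TGFB1 cells and 0.118% of untreated cells after thinning, and in 0.271% and 0.284% before it.

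**Figure D3:**
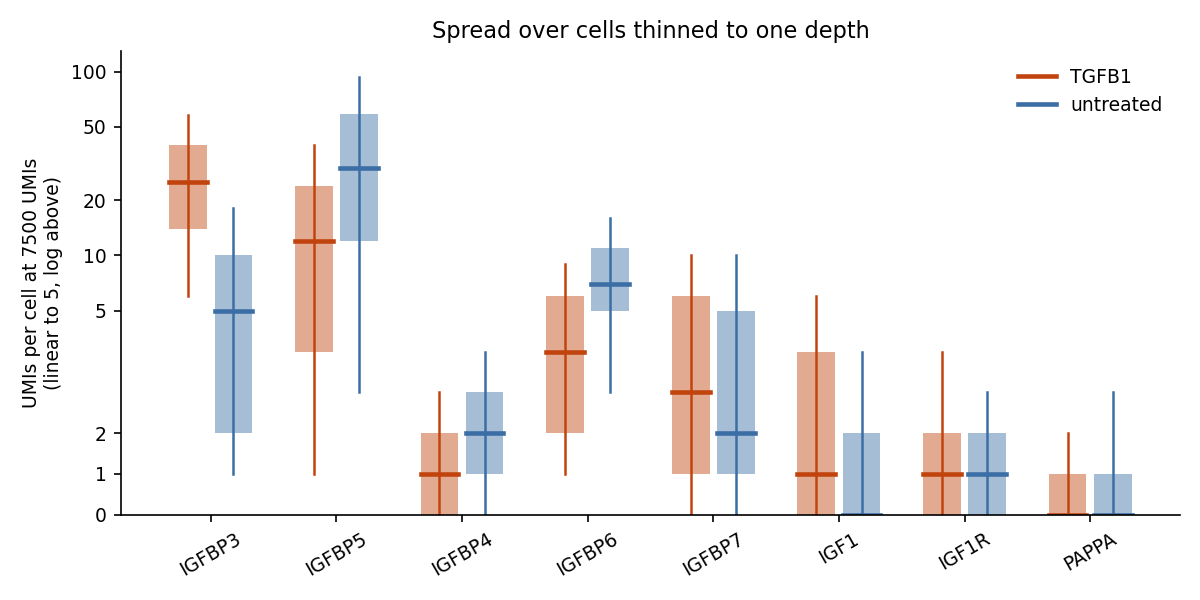
UMIs per cell after thinning to 7500 UMIs, for 8 genes in TGFB1 (orange) and untreated (blue) cells, on an axis that is linear to 5 and logarithmic above. Thick lines are medians, boxes the interquartile range and thin lines the 10th to 90th percentiles; the IGFBP3 median is 25 with TGFB1 and 5 without, and the IGFBP5 median 12 and 30.

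The authors' cell table divides the cells into 11 clusters, which were made from these same cells, so levels by cluster are given as a description. In all, 9 TGFB1 groups and 5 untreated groups held at least 50 cells. IGFBP3 ranged from 1370 CPM (cluster 1) to 5100 CPM (cluster 3) over the TGFB1 groups and from 850 CPM (cluster 6) to 2343 CPM (cluster 7) over the untreated groups. Every TGFB1 group except cluster 1, a group of 56 cells, lay above every untreated group. The order from the top was clusters 3, 4, 5, 0, 8, 7, 10 and 9 with TGFB1, then 7 and 9 untreated, cluster 1 with TGFB1, and 2, 1 and 6 untreated. Clusters 5 and 0 with TGFB1 (3756 and 3703 CPM) had overlapping intervals, as did clusters 8 and 7 (3612 and 3536 CPM), and other neighbours such as clusters 3 and 4 (5100 and 4361 CPM) did not.

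IGFBP5 ranged from 1098 CPM (cluster 8) to 5861 CPM (cluster 1) with TGFB1 and from 2398 CPM (cluster 7) to 6657 CPM (cluster 2) without, so the groups overlapped. Clusters 3 and 8, both from the TGFB1 library, had the lowest levels (1118 and 1098 CPM), and their intervals overlapped. IGFBP3 supplied the largest shares of the binding protein UMIs there, 72.0% and 65.2%. In clusters 1, 2 and 6 of the untreated library IGFBP5 supplied 70.7%, 65.9% and 61.3%.

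IGFBP7 had its highest levels in small clusters. With TGFB1 it was at 3200 CPM in cluster 10, 1805 CPM in cluster 7 and 1217 CPM in cluster 9, and at 282 to 673 CPM in the other 6 groups. Without TGFB1 it was at 2187 CPM in cluster 7 and 1605 CPM in cluster 9, and at 300 to 535 CPM in the other 3. In cluster 10 the mural cell markers summed to 290 CPM, beside 48.1 to 123 CPM in the other TGFB1 groups, and ACTA2, smooth muscle actin, stood at 4574 CPM. PAPPA was highest in cluster 9, at 542 CPM with TGFB1 and 305 CPM without, followed by cluster 7 with TGFB1 (233 CPM), cluster 1 with TGFB1 (229 CPM) and cluster 7 untreated (206 CPM). The interval of cluster 1 with TGFB1, a group of 56 cells, overlapped both of the others. Cluster 9 also carried the most PI16, a progenitor marker, at 390 CPM with TGFB1 and 262 CPM without. IGFBP4 was also highest in cluster 9 of each library, at 361 CPM with TGFB1 and 553 CPM without, and with TGFB1 its interval overlapped that of cluster 7 (343 CPM).

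**Figure D4:**
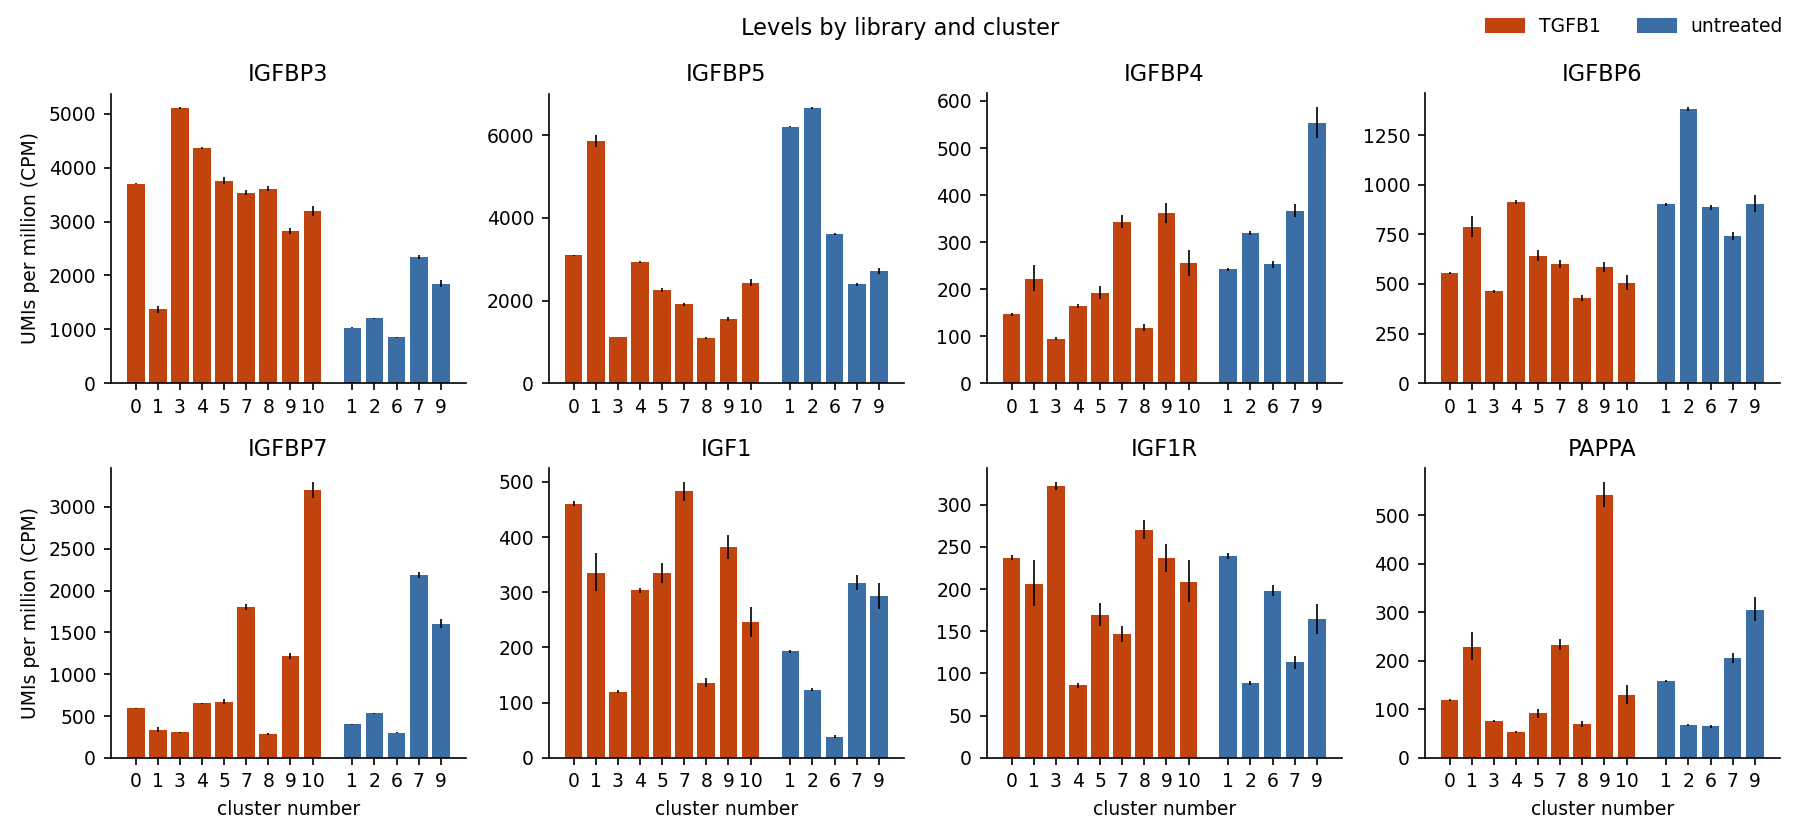
CPM of 8 genes by cluster in TGFB1 (orange) and untreated (blue) groups of at least 50 cells, with exact Poisson 95% intervals; each panel has its own axis from 0. IGFBP3 runs from 2829 to 5100 CPM in the TGFB1 groups other than cluster 1, and IGFBP7 stands out in clusters 7, 9 and 10.

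IGF1 was highest with TGFB1 in clusters 7 and 0 (483 and 460 CPM) and lowest in clusters 8 and 3 (136 and 120 CPM). In untreated cells it was highest in clusters 7 and 9 (317 and 293 CPM), which had overlapping intervals, and lowest in cluster 6 (38.4 CPM). MKI67, a gene of dividing cells, was highest in clusters 8 and 6, at 152 CPM in TGFB1 cluster 8 and 225 CPM in untreated cluster 6. TGFB1 cluster 3, where IGF1 was lowest with TGFB1, had MKI67 at 1.72 CPM. Cells were also split without clusters, by whether they had an MKI67 or TOP2A UMI. Among thinned TGFB1 cells, the 476 with an MKI67 or TOP2A UMI had IGF1 at 229 CPM, against 336 CPM in the 8854 without one, 1.47-fold lower. Among thinned untreated cells, the 915 with such a UMI had IGF1 at 68.5 CPM, against 180 CPM in the other 6731, 2.62-fold lower. IGFBP5 was lower in cells with such a UMI in both libraries, at 1566 and 2378 CPM with TGFB1 and 3750 and 5743 CPM without. IGF1R ran the other way, at 277 CPM in TGFB1 cells with such a UMI and 215 CPM in those without, and at 195 and 172 CPM in untreated cells. When all deposited cells with an MKI67 or TOP2A UMI before thinning were left out, the log2 ratio of IGF1 between libraries was 0.88 and that of IGFBP3 1.84.

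IGF1R and PAPPA were both lower in TGFB1 cluster 4 than in TGFB1 cluster 0, and in untreated cluster 2 than in untreated cluster 1. With TGFB1, IGF1R was at 323 CPM in cluster 3 and 237 CPM in cluster 0, and at 86.1 CPM in cluster 4. In untreated cells it was at 240 CPM in cluster 1 and 88.3 CPM in cluster 2, and the intervals of the 2 lowest groups overlapped. PAPPA was at 119 CPM in cluster 0, 75.99 CPM in cluster 3 and 53.6 CPM in cluster 4 with TGFB1, and at 158 CPM in cluster 1 and 67.3 CPM in cluster 2 without. IGFBP6 was highest where these were low, at 912 CPM in TGFB1 cluster 4 and 1380 CPM in untreated cluster 2. The nuclear RNA MALAT1 moved with them, at 7845 CPM in TGFB1 cluster 4 and 21714 CPM in TGFB1 cluster 0, and at 9917 CPM in untreated cluster 2 and 24102 CPM in untreated cluster 1. NEAT1, another nuclear RNA, was at 1203 CPM in TGFB1 cluster 4 and 3604 CPM in TGFB1 cluster 0, and at 1558 and 4648 CPM in untreated clusters 2 and 1. IGF1R and PAPPA span 316 kb and 249 kb, and IGFBP6 4.91 kb. The likeness did not hold in every cluster. TGFB1 cluster 3, where IGF1R was highest, had MALAT1 at 16026 CPM, below cluster 0, and TGFB1 cluster 8 had MALAT1 at 10192 CPM and IGF1R at 270 CPM. The part of nuclear or intronic RNA in these differences was not tested, and these 2 RNAs were looked at after the values were seen.

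Clusters 1, 7 and 9 held at least 50 cells of each library, which allowed the libraries to be set side by side within a cluster. The clusters were drawn from the same counts, so these ratios describe only cells that were grouped together for their likeness. IGFBP3 was higher with TGFB1 in all 3, at 1370 and 1033 CPM in cluster 1, 3536 and 2343 CPM in cluster 7 and 2829 and 1850 CPM in cluster 9. The ratios were 1.33 (1.26 to 1.40), 1.51 (1.48 to 1.54) and 1.53 (1.47 to 1.59), below the 3.70 of whole libraries. After thinning, the log2 ratio in cluster 9 was 0.14 in place of 0.61. IGF1 was also higher in all 3, with ratios of 1.74 (1.56 to 1.92), 1.52 (1.44 to 1.61) and 1.30 (1.18 to 1.44) in clusters 1, 7 and 9.

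IGFBP5 was lower with TGFB1 in cluster 9, at 1561 CPM with TGFB1 and 2722 CPM without, a ratio of 0.573 (0.552 to 0.596). Its ratio was 0.798 (0.780 to 0.817) in cluster 7 and 0.944 (0.921 to 0.967) in cluster 1. Among these clusters IGFBP4 and IGFBP6 passed 1.5-fold in cluster 9 only, at ratios of 0.654 (0.601 to 0.711) and 0.647 (0.606 to 0.691). Of the 8 members, 2 were thus higher in cluster 9 (IGFBP3 and PAPPA) and 3 lower, where 9.69% of all genes tested were higher and 17.8% lower. In cluster 7, IGFBP3 and IGF1 passed 1.5-fold upwards, and in cluster 1 IGF1 alone, beside 5.03% higher and 4.95% lower of all genes in cluster 7 and 6.42% and 6.87% in cluster 1. After thinning, IGFBP3 and IGF1 no longer passed it in cluster 7 (log2 ratios of 0.55 and 0.53), nor did IGFBP3 in cluster 9. PAPPA differed from its whole-library ratio of 0.841, with ratios of 1.45 (1.28 to 1.64), 1.13 (1.05 to 1.22) and 1.78 (1.62 to 1.95) in clusters 1, 7 and 9, and a log2 ratio of -0.04 in cluster 7 after thinning. IGFBP7 likewise had ratios of 0.838 (0.756 to 0.928), 0.825 (0.806 to 0.846) and 0.758 (0.723 to 0.795), beside 1.06 over whole libraries. The difference between cluster and library ratios was not tested.

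**Figure D5:**
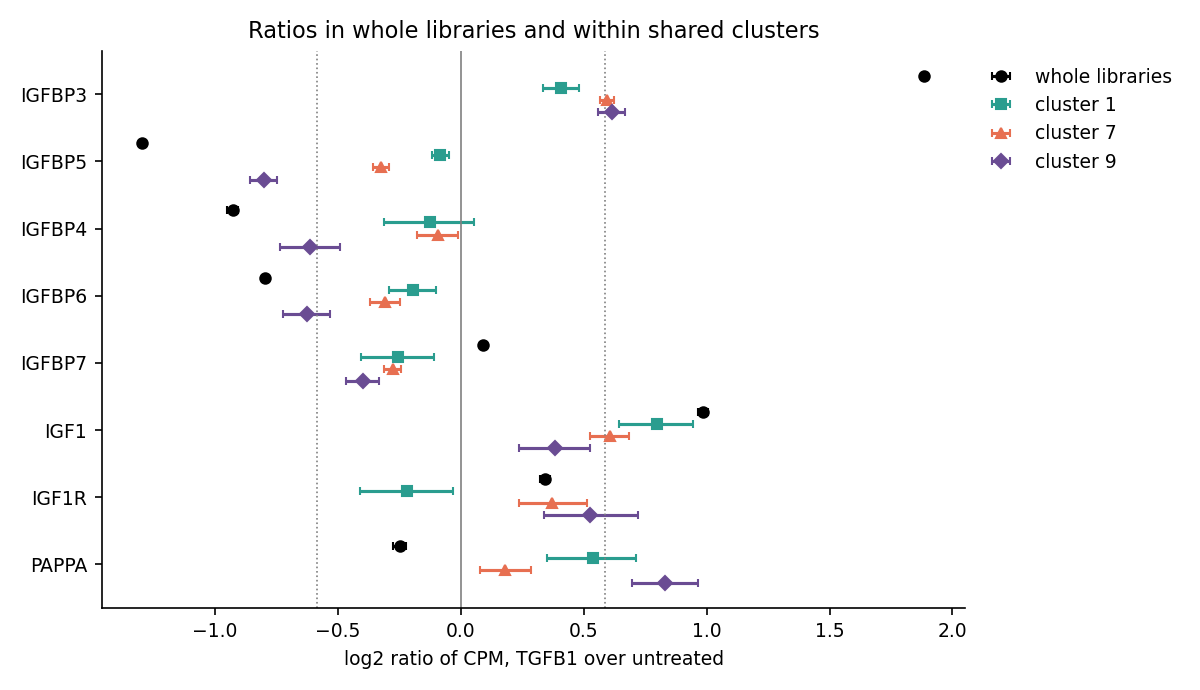
Log2 ratio of CPM, TGFB1 over untreated, for 8 genes in whole libraries (black) and within clusters 1, 7 and 9, with 95% counting intervals; dotted lines mark 1.5-fold. IGFBP3 and IGF1 lie right of 0 and IGFBP5, IGFBP4 and IGFBP6 left of 0 in all 4 settings. The interval of IGFBP4 in cluster 1 (ratio 0.917, from 0.806 to 1.04) reaches past 0 on this axis. IGF1R, PAPPA and IGFBP7 change side.

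IGF1 and IGFBP3, both higher with TGFB1, were not highest in the same cells. Within the TGFB1 library, IGF1 and IGFBP3 were inversely related over 9330 thinned cells, with a Pearson r of -0.26 on the log2 scale, and r was -0.32 within cluster 0 (3640 cells) and -0.26 within cluster 4 (2294 cells), but -0.13 within cluster 3 (2437 cells). In untreated cells r was -0.01 over 7646 cells. Among TGFB1 cells of cluster 0, the 964 with 34 or more IGFBP3 UMIs had a mean of 2.66 IGF1 UMIs, and the 923 with 13 or fewer had 5.67. A UMI of IGF1 was seen in 79.4% and 92.3% of them. IGF1 and IGFBP5 had an r of 0.33 over TGFB1 cells, and of 0.02, 0.23 and 0.25 within clusters 0, 3 and 4. Over untreated cells it was 0.01. All 28 pairs of the 8 genes were computed, and cells of 1 library share its depth and free RNA, so these values are descriptions.

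Levels over the 14 groups of library and cluster were also compared with those of 6679 other genes at 20 CPM or more. The groups share 2 libraries and differ in depth, so r is a description. The profiles most like IGFBP3 were those of the tropomyosin gene TPM1 (r = 0.97), MRAS (0.96) and the prolyl hydroxylase P4HA3 (0.96). Those most like IGFBP5 were TNFRSF11B, which encodes osteoprotegerin (0.96), the collagen gene COL6A1 (0.96) and TPBG (0.93). IGF1 was most like the collagen genes COL1A2 (0.92) and COL5A2 (0.91) and SERINC1 (0.92). IGF1R was most like SLC20A2 (0.96), NLRC5 (0.95) and the non-coding RNA MEG8 (0.95), and PAPPA like WBP1L (0.95), SUSD6 (0.95) and ITPR2 (0.95). Those like IGFBP4 included MCFD2 (0.92) and YIPF4 (0.92). They were, for IGFBP6 ERP29 (0.96), CORO1B (0.95) and WDR45 (0.95), and for IGFBP7 TMEM127 (0.94), CHCHD10 (0.94) and LOXL2 (0.94).

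Of 38 further genes of the IGF pathway, from carriers and inhibitors outside the cell to kinases downstream of the receptor, 30 reached 5 CPM. Of these, 1 was higher and 1 lower by 1.5-fold, beside 8.45% and 14.2% of all genes tested. GRB10, an adaptor that restrains the insulin and IGF1 receptors, was at 82.0 CPM with TGFB1 and 28.8 CPM without. PIK3R1, the main regulatory subunit of phosphoinositide 3-kinase, was at 64.2 CPM with TGFB1 and 178 CPM without. The median log2 ratio of the 30 genes was 0.01. EIF4EBP1, a translation repressor controlled by mTOR, was at 287 CPM with TGFB1 and 191 CPM without. It lay just within 1.5-fold and passed it with TMM factors and after thinning, each of which gave 3 genes higher in place of 1. The stanniocalcins, secreted inhibitors of PAPPA, also lay within it, with STC2 at 188 CPM with TGFB1 and 170 CPM without and STC1 at 19.3 and 20.3 CPM. PAPPA2, the relative of PAPPA that cuts IGFBP3 and IGFBP5, was at 9.93 CPM with TGFB1 and 7.58 CPM without. The insulin receptor INSR (23.5 and 27.8 CPM), IGF2R, which clears IGF2 (48.4 and 56.5 CPM), and the docking proteins IRS1 (26.7 and 30.6 CPM) and IRS2 (52.7 and 67.8 CPM) also lay within 1.5-fold.

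Other secreted proteins carry a domain of the IGF-binding type. Of 12 such genes, 7 reached 5 CPM. Of these, 4 were higher and 1 lower, with a median log2 ratio of 0.68, beside 8.45%, 14.2% and -0.10 over all genes tested. The higher ones were CCN2 (3219 CPM with TGFB1 and 1015 CPM without), CCN4 (37.9 and 19.3 CPM), CRIM1 (619 and 355 CPM) and CCN1 (891 and 555 CPM), and the lower one was CCN3 (5.07 and 45.1 CPM). CCN2 is also among the 10 SMAD genes above. Of 18 proteases reported to cut binding proteins, 14 reached 5 CPM, with 3 higher, 4 lower and a median of -0.22. PCSK5 (23.5 CPM with TGFB1 and 10.7 CPM without), ADAM12 (700 and 386 CPM) and FURIN (16.5 and 10.8 CPM) were higher. PLAT (7.16 CPM with TGFB1 and 41.6 CPM without), ADAMTS1 (27.1 and 132 CPM), PLAU (8.22 and 20.3 CPM) and MMP1 (14.2 and 23.4 CPM) were lower. Of 8 inhibitors and related genes, 7 reached 5 CPM, with 3 higher, none lower and a median of 0.30. Among the higher ones were TFPI2 (278 CPM with TGFB1 and 85.3 CPM without) and TIMP3 (943 and 363 CPM). The protease and inhibitor counts stand beside the same shares and median of all genes tested.

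Of 16 target genes of the FOXO factors, which insulin and IGF signalling restrains, 12 reached 5 CPM. Among those 12, 1 passed 1.5-fold upwards and 3 downwards, and their median log2 ratio was -0.22. All genes tested stood at 8.45% upwards and 14.2% downwards, and their median was -0.10. Whether this list or the next departs from those values was not tested. FBXO32 was at 131 CPM with TGFB1 and 76.6 CPM without. TXNIP (29.3 CPM with TGFB1 and 130 CPM without), SOD2 (102 and 336 CPM) and SESN3 (9.01 and 16.8 CPM) were lower. Of 8 genes that bind IGF2 RNA or regulate growth beside it, 5 reached 5 CPM, and HMGA2 alone passed 1.5-fold (46 CPM with TGFB1 and 85.4 CPM without), with a median of 0.06. IGF2BP2 (111 and 106 CPM) and IGF2BP3 (48.8 and 46.8 CPM) bind IGF2 RNA, and IGF2 itself had 4 UMIs with TGFB1 and 1 without.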

How the data were processed

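Per the labels' protocols, the cells were trypsinised and frozen before 10x sequencing at a service provider. The submitters' processing notes name GRCh38, Seurat and Cell Ranger 9.0.1, without roles; the annotation is not stated there. The authors deposited 1 matrix of unnormalised UMI counts, with 38606 genes in 20656 cells. Their deposited annotation of the cells holds the library name, the cluster number, counts of UMIs and genes per cell and the percent of mitochondrial UMIs. Cells hold at least 502 genes and at most 5.00% mitochondrial UMIs. Doublets were not removed here. Of the row names, 23208 were found in GENCODE release 29, used for positions.

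UMIs were summed per library, or per library and cluster, and divided by the total to give CPM. Each ratio divides the TGFB1 by the untreated CPM and has a 95% interval from the exact conditional binomial distribution, levels carry exact Poisson intervals and shares exact binomial (Clopper-Pearson) intervals. These compare 2 libraries, of 208991941 and 169011524 UMIs, and not the conditions. Genes counted as higher or lower from 1.5-fold at 5 CPM or more in either library. Correlations used log2(CPM + 1) over groups, and log2(UMIs per 10000 + 1) over cells thinned to 7500 UMIs without replacement. edgeR 4.0.16 (R 4.3.3) gave TMM factors only. The other steps ran in Python 3.11.15 (scipy 1.17.1, numpy 2.4.6, matplotlib 3.10.9, pandas 2.3.3). The ratio and thinning steps were tested on simulated data.

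The members and gene lists were chosen with earlier results of these data known. Named genes were the members, up to 6 genes of each list past 1.5-fold with the largest differences, and for each member at 20 CPM or more the 3 genes with the most similar profile; further pathway genes within 1.5-fold were named after their values were seen. A few genes under this rule are not reported here. Alternatives were other scalings, equal weight per cell, thinning, and a minimum of 1000 genes per cell with at most 10% mitochondrial UMIs. The 10% limit removed no cell, since the deposited cells hold at most 5.00%. Further alternatives were groups of at least 200 cells, floors of 1 and 20 CPM and a 2-fold threshold. Cycling cells, cluster 5, or clusters 7, 9 and 10 were also left out in turn.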

Additional observations from a re-analysis of the deposited data

Results flagged for a closer look

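IGF1R, the receptor gene, was lower with TGFB1 within cluster 1 (log2 ratio -0.22, at 206 CPM in 56 TGFB1 cells and 240 CPM in 3687 untreated cells) and higher within cluster 7 (0.37, at 146 and 113 CPM) and cluster 9 (0.53, at 236 and 164 CPM). After thinning, the value in cluster 1 was -0.04. It is listed because the 2 directions are opposite and no counting interval held a ratio of 1. The difference between clusters was not tested, since each rests on 1 library per condition.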

How the results depend on the processing

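Under the 8 alternatives that rescale, reweight, thin or leave out cells, the 5 members called at 1.5-fold kept their direction and their side of 1.5-fold. The log2 ratio ran from 1.84 to 2.08 for IGFBP3, 0.88 to 1.18 for IGF1, -1.33 to -1.10 for IGFBP5, -0.996 to -0.74 for IGFBP4 and -0.87 to -0.60 for IGFBP6. With a 2-fold threshold 1 member was higher (IGFBP3) and 1 lower (IGFBP5), in place of 2 and 3. The count of other pathway genes called higher was 1, and 3 with TMM factors, median-of-ratios factors, equal weight per cell or thinning, and 2 without clusters 7, 9 and 10. The added genes included PAPPA2 with equal weight per cell, and EIF4EBP1 with either scaling, thinning or without those clusters. The cause was not tested. Cluster 5, with a median of 2571 UMIs per cell, changed no member's call when left out. No paired analysis was possible because each condition has 1 library. Depth limits IGFBP2 and IGF2, whose UMIs are too few for a direction.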

Other observations

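Some cells of the TGFB1 library were grouped with untreated cells. In clusters 1 and 2 their binding protein transcripts were nearer to those of the untreated cells there than to the whole TGFB1 library. The clusters were drawn from the same counts, so a nearness to the untreated cells was largely set by the grouping and is only a description. In cluster 1, 56 TGFB1 cells had IGFBP5 at 5861 CPM and IGFBP3 at 1370 CPM, beside 6209 and 1033 CPM in the untreated cells there. In cluster 2, 46 TGFB1 cells had IGFBP5 at 7599 CPM and IGFBP3 at 1589 CPM, beside 6657 and 1208 CPM. IL11, a cytokine gene, was at 26.0 CPM in the TGFB1 cells of cluster 1 and 2.797 CPM in its untreated cells, and at 21.5 and 2.64 CPM in cluster 2, while it was at 110 CPM in TGFB1 cells of cluster 0. IGF1 was higher in these cells than in their untreated neighbours, at 335 and 193 CPM in cluster 1 and 209 and 123 CPM in cluster 2. In cluster 6, 21 TGFB1 cells had IGFBP3 at 2425 CPM and IGFBP5 at 784 CPM, beside 850 and 3620 CPM in its untreated cells. None of the TGFB1 cells in clusters 1 and 2 carried a barcode found in both libraries (0 of 18). With only 18 such barcodes and 12555 TGFB1 cells, this count is uninformative on mixing between libraries, which was not tested.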
